A study of Nasonia vitripennis and Nasonia giraulti with 12 samples.

Results

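Female-limited genes shared by a pair of jewel wasp species, Nasonia giraulti and Nasonia vitripennis, were described from whole-body RNA sequencing of adults. A gene counted as a member if its mean level was at least 10 CPM (the reads of a gene scaled to a common library total) in the females of both species, if its log2(mean CPM + 0.5) was at least 5 units higher in females than in males in each species, and if that value differed by less than 2 units between the females of the species. A difference of 5 units is 32-fold and a difference of 2 units is 4-fold on that scale. Of the 24337 genes in the table, 247 (1.01%) met these conditions, and they made up 3.04% of the 8123 genes with at least 10 CPM in both female groups. The members were thus chosen on the group means of these same libraries, so their sex differences are given as a description and not as a test.

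The libraries came from N. giraulti females, N. giraulti males, N. vitripennis females and N. vitripennis males, with 3 libraries in each of the 4 groups. N. giraulti was represented by strain R16A and N. vitripennis by strain AsymCX, so a species difference here is a difference between these strains. All animals were untreated adults collected 24 h after eclosion, and each library held the RNA of a pool of 10 whole bodies, which averages over animals. Total counts were 32463168 to 39045479 in N. giraulti females, 26494193 to 39597569 in N. giraulti males, 24516522 to 47509108 in N. vitripennis females and 23763596 to 51374887 in N. vitripennis males. The libraries bear the numbers 1 to 3 within each group. Libraries with the same number tended to deviate together across groups, as given with the replicate values further on.

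Jewel wasps are parasitoids whose females sting fly pupae, inject venom and lay their eggs on the host. Males are haploid and develop from unfertilised eggs, while females are diploid and carry ovaries, a venom gland and an ovipositor. In insect ovaries of this kind, nurse cells load the growing egg with RNA and protein, and the surrounding follicle cells make the egg shell, so that genes read out in the ovary or the venom gland can be nearly restricted to females. Whole bodies were sequenced, so more cells of a type and more RNA per cell cannot be told apart in any value below. None of the gene identifiers matched the name table of 15501 genes used here, and what each member encodes is therefore not stated, lists of ovary, egg shell, venom and testis genes were not counted, and the labelled sex was not checked against marker genes.

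The members were abundant in females and at low levels in males. In N. giraulti they had group means from 17.6 to 4659 CPM in females, with a median of 100.9 CPM, against 0 to 51.7 CPM in males, with a median of 0.559 CPM. N. vitripennis showed the same arrangement, with 19.7 to 4124 CPM and a median of 121 CPM in females, against 0 to 51.6 CPM and a median of 0.804 CPM in males. A floor of 3 counts in a single male library corresponds to 0.0758 to 0.113 CPM in N. giraulti and 0.0584 to 0.126 CPM in N. vitripennis, which covers counting error only. Most members thus lay above that floor even in males.

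**Figure D1:**
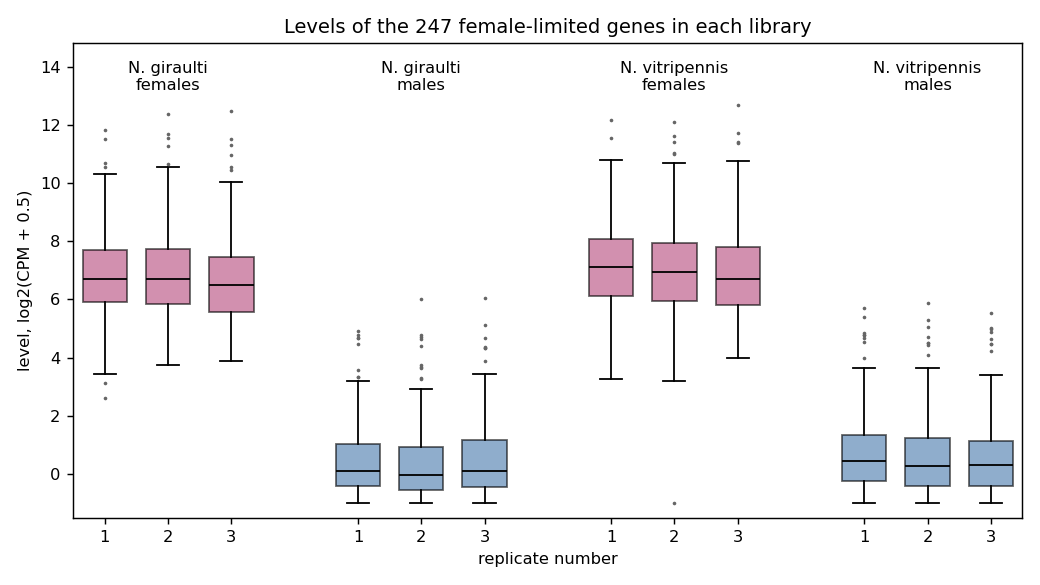
Levels of the 247 members in each library, as log2(CPM + 0.5), by group and replicate number. Boxes span the quartiles with the median as a line, whiskers reach 1.5 box lengths and points lie beyond them. The boxes of the female libraries lie far above those of the male libraries in both species, and the lone low point in number 2 of the N. vitripennis females is a member listed at 0 reads there.

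Together the members held a visible share of all reads in females. In N. giraulti females they took 5.15%, 5.97% and 5.42% of counts in libraries 1, 2 and 3, against 0.0449%, 0.0468% and 0.0519% in N. giraulti males. In N. vitripennis females they took 6.35%, 6.47% and 6.25%, against 0.0606%, 0.0569% and 0.0541% in N. vitripennis males. The sexes were separated in both species, and the shares in females did not overlap between the species, with N. giraulti lower. These shares are sums over genes chosen on the same libraries. Within the list the reads were concentrated, since the 10 most abundant members held 34.3% of the summed mean level in N. giraulti females and 32.5% in N. vitripennis females. Among all genes of the table, 7 members ranked in the top 100 by mean level in N. giraulti females and 10 in N. vitripennis females, and 69 and 78 members ranked in the top 1000.

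The sex difference of the members had a median of 6.20 units in N. giraulti (lowest 5.02, highest 8.87) and 6.24 units in N. vitripennis (lowest 5.03, highest 8.65), in log2(mean CPM + 0.5). A difference of at least 6 units, or 64-fold, was reached by 143 members in N. giraulti, by 155 in N. vitripennis and by 115 in both. At 7 units, or 128-fold, the counts were 67, 74 and 47, and at 8 units they were 14, 10 and 5. The added 0.5 CPM caps these differences where the male level is near 0, so they understate the ratio of low genes. Across the 247 members the sex differences in N. giraulti and N. vitripennis correlated at a Pearson r of 0.694, over genes that the rule selected on both values. In the fit over all genes, all 247 members passed the filter on low counts, which they could pass through females alone, and all 247 were called higher in females in each species at an adjusted p under 0.05 (edgeR quasi-likelihood, p adjusted after Benjamini and Hochberg). Of the 16536 genes tested in N. giraulti, 26.9% were called higher and 30.0% lower in females, or 56.9% in all. In N. vitripennis these shares were 32.4%, 32.6% and 65.0%. The split over all genes moved with the scaling, for in N. giraulti library size alone gave 5258 genes higher in females and 3506 lower, where TMM (trimmed mean of M values) scaling gave 4447 and 4954. With upper-quartile scaling there were 3598 and 6687 in N. giraulti and 3994 and 7592 in N. vitripennis. The rule used this contrast, so nothing is read from the members' count.

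**Figure D2:**
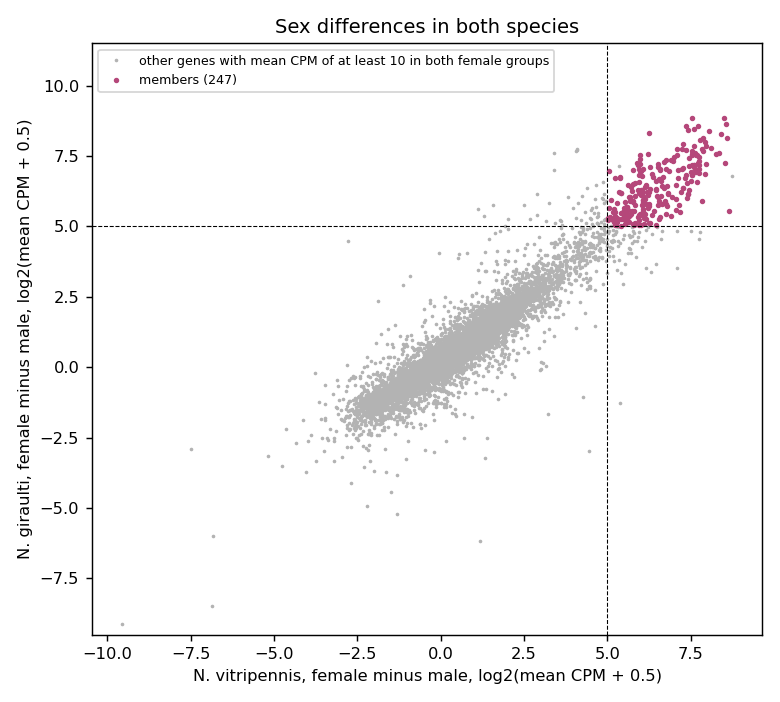
Female minus male difference in log2(mean CPM + 0.5) in N. giraulti (vertical axis) against N. vitripennis (horizontal axis) for the 8123 genes with at least 10 CPM in both female groups, with members in colour. Dashed lines mark the limit of 5 units. The members form the upper end of a continuous band of genes and are not set apart from it by a gap.

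The limits fell inside a continuous distribution. The members nearest to the limit had a sex difference of 5.02 units in N. giraulti and 5.03 in N. vitripennis. The nearest genes outside it, which met the other conditions, stood at 4.999 and 4.97. In all, 61 genes failed only through their sex difference in N. giraulti and 53 only through that in N. vitripennis. The difference they failed had medians of 4.49 and 4.40 units, so the middle gene of each set was still strongly higher in females there. The lowest values of these sets are not given here. The limit on the species difference removed 2 genes, the nearer of which stood at 2.04 units, where the member closest to that limit had 1.82. The minimum of 10 CPM removed no gene, since a sex difference of 5 units already requires 15.5 CPM in females. With the sexes exchanged, the same conditions found 67 male-limited genes, which took 4.95% ± 0.453 (SD, n = 3) of counts in N. giraulti males and 7.07% ± 1.38 in N. vitripennis males.

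A check on libraries that had no part in the choice was made by applying the conditions to libraries of 2 numbers and reading the third. Chosen on numbers 2 and 3, there were 244 genes, and 213 of them (87.3%) had sex differences of at least 5 units in both species in the libraries numbered 1. Chosen on numbers 1 and 3, 222 of 243 genes (91.4%) did so in the libraries numbered 2. Chosen on numbers 1 and 2, 207 of 250 genes (82.8%) did so in the libraries numbered 3. At least 4 units in both species were found in the left-out libraries for 241, 238 and 249 of these genes. The median sex difference in the left-out libraries was 6.31, 6.29 and 5.96 units in N. giraulti and 6.41, 6.29 and 6.07 units in N. vitripennis. Taken number by number, 188 of the 247 members met all conditions in each of the 3 numbers by themselves.

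The member with the highest level in females among those with whole counts was Nasvi2EG010626. Its level was 2914, 5335 and 5728 CPM in libraries 1, 2 and 3 of N. giraulti females, against 7.37, 11.9 and 19.7 CPM in N. giraulti males. In N. vitripennis it was 1551, 2693 and 6641 CPM in females, against 7.38, 22.1 and 31.9 CPM in males. Females lay far above males throughout, and in each of the 4 groups the library numbered 1 was the lowest. Pooled over libraries, reads were 375-fold more frequent in females than in males of N. giraulti (exact 95% counting interval 355 to 398). In N. vitripennis they were 195-fold more frequent (186 to 205). Such intervals cover counting error only and not the spread between libraries. By that spread the sex effect was not called different between the species (edgeR interaction, adjusted p = 0.779). That fit left the replicate number in the spread, and a value with the number taken out is not given here for this gene.

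Nasvi2EG023364, the next in level, was steadier. It stood at 3617, 3298 and 2957 CPM in N. giraulti females, against 29.9, 20.7 and 20.2 CPM in N. giraulti males. The N. vitripennis libraries held 4619, 4410 and 3343 CPM in females, against 28.2, 16.3 and 18.2 CPM in males. Library 1 was here the highest in each group, the reverse of the order seen for Nasvi2EG010626. The pooled ratio of females over males was 136 (131 to 142) in N. giraulti and 183 (176 to 191) in N. vitripennis, by counting error only. By the spread between libraries the sex effect was not called different between the species (edgeR interaction, adjusted p = 0.216). The replicate number was left in that spread here too.

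Not every member was even among the libraries of a group. Nasvi2EG019966, singled out after its values were seen, was at 22.2, 24.1 and 40.2 CPM in N. giraulti females and at 27.8, 0 and 40.7 CPM in N. vitripennis females, and it was listed at 0 in all 6 male libraries. It was the single member whose sexes overlapped, because library 2 of the N. vitripennis females was also at 0. The other 246 had each female library above each male library in both species, which held for 27.1% of all genes tested (34.9% in N. giraulti and 31.6% in N. vitripennis) and is nearly given by the rule. This gene has fractional counts, a sign that the deposited counting divided reads between rows, and its level is uncertain. Fractional counts occurred in 30 members (12.1%), against 3372 genes (13.9%) of the table.

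Male libraries held a low but measurable amount of the members' RNA. The male level was 0.547% of the female level in the median member of N. giraulti, with quartiles of 0.288% and 1.11% and a maximum of 2.93%. In N. vitripennis the median was 0.559%, the quartiles 0.299% and 1.18% and the maximum 2.69%. All of these values lie under the ceiling that the rule sets. Summed over the members, males reached 0.872%, 0.784% and 0.958% of the level in the equally numbered females of N. giraulti, and 0.954%, 0.878% and 0.865% in N. vitripennis. Reads were found in all 3 male libraries for 240 members in N. giraulti and for 241 in N. vitripennis, with a median of 57 and 85 reads per member over the 3 libraries. A male mean of at least 1 CPM was found for 92 members in N. giraulti males and 107 in N. vitripennis males, and at least 10 CPM for 8 and 9.

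The male level differed between members in a way that the species shared. Across the 246 members with reads in the males of both species, the log2 male level of N. giraulti and N. vitripennis had a Pearson correlation of 0.905, and the log2 male level as a share of the female level one of 0.709. Within a species, the log2 male level correlated with the log2 female level at 0.778 in N. giraulti and 0.782 in N. vitripennis. These correlations run across genes that share libraries and gene length, and the rule bounded the male level from above by the female level, so they are descriptions only. Whether male reads came from male tissue, from other animals or from reads assigned to the wrong library was not tested.

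The difference between the species was examined next. In females the rule bounded it, so the values and calls below are a description and not an independent test. The fitted log2 ratio of N. giraulti to N. vitripennis females had a median of -0.56 over the members and -0.20 over all tested genes. With library size alone, which moved all genes to a median near 0, the members stood at -0.36. On this scale 10 members (4.05%) were called higher and 67 (27.1%) lower in N. giraulti females, where 12.5% and 18.4% of all genes were called, or 30.9% in all (edgeR, adjusted p under 0.05). Blocking on the replicate number gave 19 and 124 members, and library size alone gave 17 and 40, so that lower calls outnumbered higher ones in each. Over all genes the main fit gave 2065 higher and 3042 lower, the block 3048 and 5022, and library size alone 2552 and 2114. Lower calls numbered 37 without N. giraulti female library 3, 40 without N. vitripennis male library 3 or N. giraulti male library 2, and 43 without N. giraulti male library 3. Higher calls reached 16 without N. vitripennis male library 1 and 17 without N. giraulti male library 1 or 2, and were 6 without N. giraulti female library 2. Calls over all genes moved as well. They were 1762 higher and 2400 lower without N. giraulti female library 2, and 1621 and 2208 without 3. Without N. giraulti male library 1, 2 or 3 they were 2654 and 2439, 2382 and 2217, and 2434 and 2275. Without N. vitripennis male library 1 or 3 they were 2534 and 2298, and 2420 and 2162.

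In males the rule set no limit on the difference between the species, although each male level was bounded by the female level of its own species. Over the members the median log2 ratio of N. giraulti to N. vitripennis males was -0.19, against -0.01 over all genes tested. There were 19 members (7.69%) called higher and 27 (10.9%) lower in N. giraulti males, against 15.0% and 16.6% of all genes, or 31.6% in all (edgeR quasi-likelihood test, adjusted p under 0.05, n = 3 per group). Both shares lay under those of all genes, beside the low male counts of the members. Blocking on the replicate number gave 24 higher and 41 lower, and library size alone gave 14 and 39. Over all genes the block gave 3550 and 3886, and library size alone gave 1946 and 3568. The balance between higher and lower calls was not stable. It turned to 21 higher and 12 lower without N. giraulti male library 2, to 18 and 13 without N. giraulti male library 3, to 28 and 14 without N. vitripennis male library 1 and to 21 and 18 without N. vitripennis male library 3. The balance over all genes turned in the same runs, from 2483 higher and 2742 lower in the main fit. In the same order it became 2608 and 2075, 2745 and 2110, 2679 and 2245, and 2354 and 2158. With only the 6 male libraries, where 182 members were tested, 14 members were called higher and 12 lower. Of the 15436 genes tested there, 2122 were called higher and 2441 lower.

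**Figure D3:**
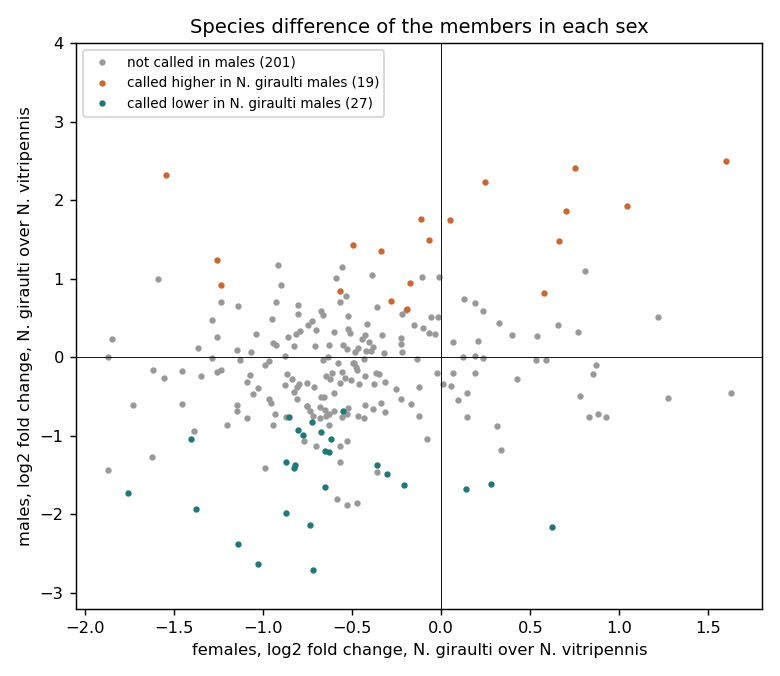
Log2 ratio of N. giraulti to N. vitripennis in males (vertical axis) against females (horizontal axis) for the 247 members, from the fit over all genes. Colours mark the 19 members called higher and the 27 called lower in N. giraulti males (edgeR adjusted p under 0.05). The points spread widely in males at each value in females.

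The log2 fold changes between the species in males and in females had a Pearson correlation of 0.227 across the 247 members. It was 0.752 across all 16536 genes tested, but the rule cut the range of the members in females, so the values cannot be compared. Of the 27 members called lower in N. giraulti males, 24 also had a negative fold change in females and 13 were called lower there. Of the 19 called higher in N. giraulti males, 8 had a positive fold change in females and 4 were called higher there, while 3 were called lower. The median level of these 19 was 3.09 CPM in N. giraulti males against 0.940 CPM in N. vitripennis males, and that of the 27 was 0.475 CPM against 1.73 CPM.

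Nasvi2EG011429 had the highest fold change between the male groups among called members with whole counts. It was at 0.581, 0.729 and 0.528 CPM in N. giraulti males, against 0.117, 0.126 and 0.121 CPM in N. vitripennis males, where only 12 reads were counted over the 3 libraries. The male groups did not overlap, and the log2 fold change was 2.50 (SE 0.33, edgeR adjusted p = 7.70e-05). Its females differed in the same direction, with 149, 144 and 140 CPM in N. giraulti and 39.9, 31.4 and 52.6 CPM in N. vitripennis.

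Nasvi2EG006004 was the next, and it was far more variable. Its level was 1.47, 0.638 and 3.89 CPM in N. giraulti males, against 0.253, 0.505 and 0.565 CPM in N. vitripennis males. The groups did not overlap, but library 3 of the N. giraulti males held most of the difference, and the log2 fold change was 2.41 (SE 0.75, edgeR adjusted p = 0.0279). Without that library it was 1.73 with an adjusted p of 0.0934, and the call was also lost without N. vitripennis male library 1 (0.0897) or 2 (0.0586). In females the libraries ran over 30.3, 109 and 116 CPM in N. giraulti and 30.8, 35.4 and 66.2 CPM in N. vitripennis, so that the groups overlapped.

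Toward the other side, Nasvi2EG004881 had 0.631, 0.304 and 0.491 CPM in N. giraulti males, against 2.67, 4.33 and 3.51 CPM in N. vitripennis males. Every N. giraulti male library lay below every N. vitripennis one, with a log2 fold change of -2.63 (SE 0.33, edgeR adjusted p = 5.07e-05). The gene differed less in females, at 197, 124 and 109 CPM in N. giraulti and 311, 271 and 181 CPM in N. vitripennis. As a result females exceeded males by a pooled ratio of 301 (227 to 408) in N. giraulti and 80.5 (72.2 to 90.0) in N. vitripennis. These intervals too cover counting error only.

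Nasvi2EG011980 was at 0.126, 0.0608 and 0.151 CPM in N. giraulti males, on 11 reads in all, against 0.856, 0.295 and 0.807 CPM in N. vitripennis males. These groups did not overlap either, and the log2 fold change was -2.38 (SE 0.45, edgeR adjusted p = 0.00117). Its females were even within each species, with 40.7, 41.9 and 38.9 CPM in N. giraulti and 77.2, 72.4 and 83.0 CPM in N. vitripennis.

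The sex effect itself was compared between the species by an interaction term, which describes values that the rule used. The effect of females over males was larger in N. giraulti for 6 members and smaller for 18, together 9.72% of the members (edgeR, adjusted p under 0.05). Over all genes the shares were 2.73% and 4.29%, or 7.02% in all. Blocking on the replicate number gave 17 and 40 members, and library size alone turned the balance, to 13 and 9. Over all genes the balance turned with library size alone too, from 451 and 710 to 773 and 414. The block gave 950 and 1837 there.

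**Figure D4:**
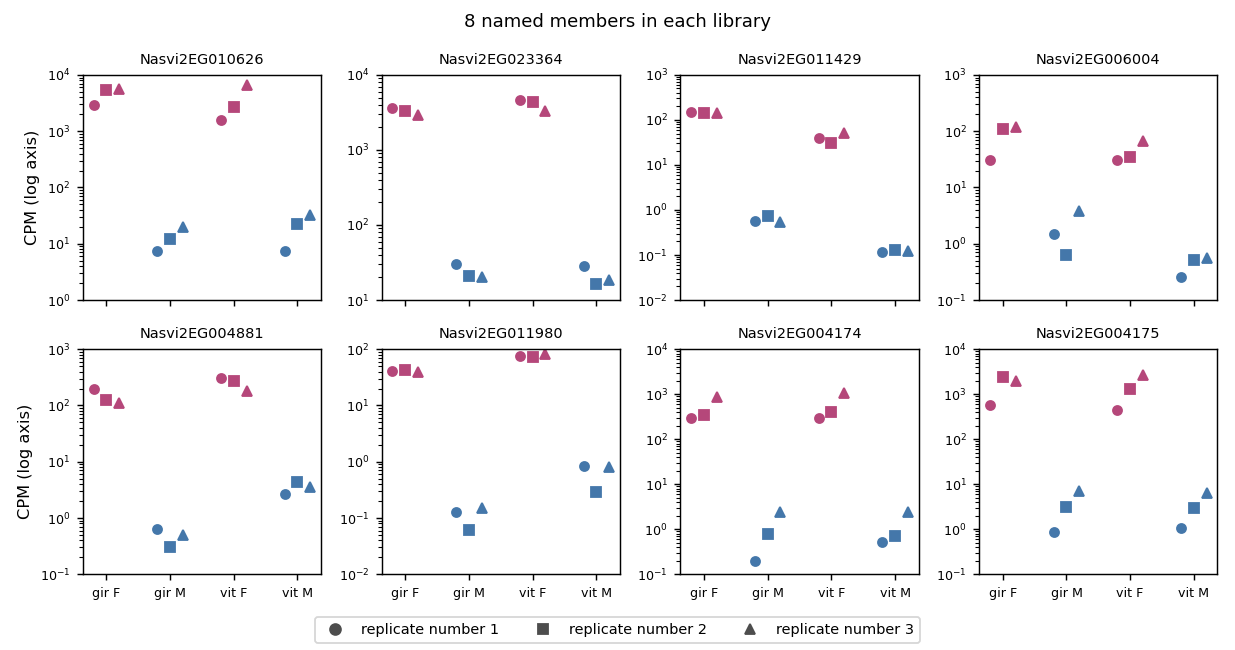
CPM of the 8 named members with whole counts in each library, on log axes that differ between panels, with females in pink and males in blue and the replicate numbers as symbols (gir, N. giraulti, vit, N. vitripennis, F, females, M, males). Females lie above males in each panel, and in Nasvi2EG004174 and Nasvi2EG004175 the libraries numbered 1 are the lowest of each group.

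How the members varied between libraries of a group was not used by the rule. The SD of log2(CPM + 0.5) over 3 libraries had a median of 0.271 in N. giraulti females and 0.367 in N. vitripennis females. Genes with at least 10 CPM in the same group had medians of 0.257 (8712 genes) and 0.338 (8557 genes). The members were therefore about as variable as other expressed genes, with the larger spread in N. vitripennis in both cases.

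Part of that spread followed the replicate number. In a fit with group and number, 86 members (34.8%) differed between the numbers, against 33.5% of all genes (edgeR F test of the number terms, adjusted p under 0.05), a share near that of all genes. Numbers 2 and 3 were on average above number 1 for 29 of them and below it for 57. The shares of 11.7% and 23.1% of members stand beside 14.5% and 19.0% of all genes. Leaving out library 3 of the N. giraulti females lowered the 86 to 48, and leaving out library 3 of the N. vitripennis females lowered it to 43. Calls over all genes fell too, from 2405 above and 3138 below number 1 in the main fit. Without library 3 of the N. giraulti females they were 1810 and 2133 of 17091 genes. Without library 3 of the N. vitripennis females they were 1834 and 2280 of 17124 genes.

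The shift between numbers was alike in the species for some numbers and not for others. Library 3 minus library 1 in females, in log2(CPM + 0.5), had a Pearson correlation of 0.791 between N. giraulti and N. vitripennis across the 247 members and 0.764 across the 8123 genes at 10 CPM or more in both female groups. For library 2 minus library 1 the correlations were 0.186 and 0.596, and for library 3 minus library 2 they were 0.647 and 0.548. The median of library 3 minus library 1 was -0.22 over the members and -0.21 over those genes in N. giraulti, and -0.43 and -0.27 in N. vitripennis. At least 2-fold lower in library 3 than in library 1 in both species were 3 members (1.21%), against 0.751% of those genes. At least 2-fold higher in both were 9 members (3.64%), against 3.14%. In library 3 against library 2, 7 members (2.83%) were at least 2-fold higher in both species, against 27 of those genes (0.332%). At least 2-fold lower there were 0 members, against 3 of those genes (0.0369%). The counts went the other way in library 2 against library 1, where 1 member (0.405%) was at least 2-fold higher, against 157 genes (1.93%). At least 2-fold lower there was 1 member (0.405%), against 32 genes (0.394%). What the numbers stand for is not given in the labels. Library 1 had the highest total counts in each of the 4 groups. A shift against number 1 therefore runs along with sequencing depth, and the share of depth in it was not tested.

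**Figure D5:**
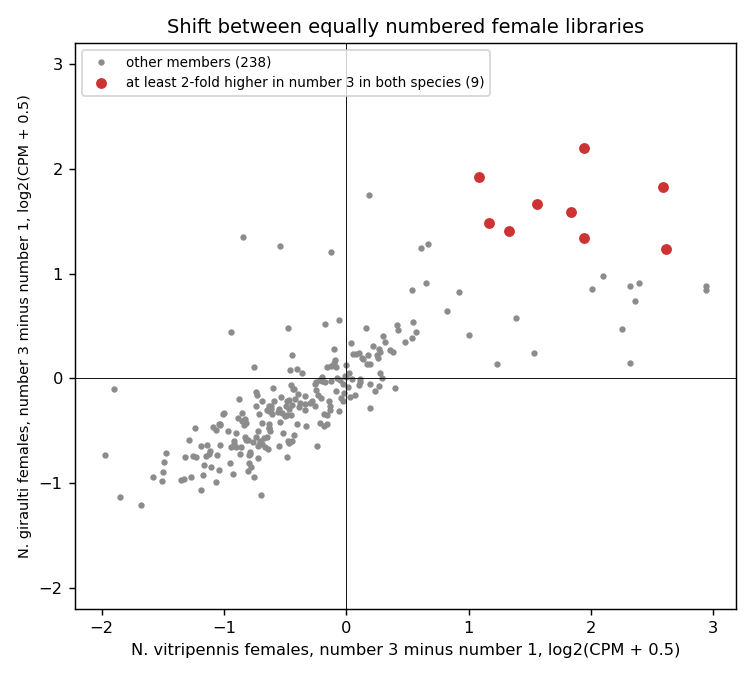
Library 3 minus library 1 of the females in N. giraulti (vertical axis) against N. vitripennis (horizontal axis), in log2(CPM + 0.5), for the 247 members. The 9 members at least 2-fold higher in library 3 in both species are in red, at the end of a tail to the upper right, and most other points lie below 0 on both axes.

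The 9 members at least 2-fold higher in library 3 were a small but uneven part of the total, and they were picked on their values. Their summed level was 1237, 3894 and 4224 CPM in libraries 1, 2 and 3 of N. giraulti females, against 5.22, 8.17 and 19.7 CPM in N. giraulti males. In N. vitripennis it was 1256, 2382 and 5499 CPM in females, against 3.72, 7.87 and 14.3 CPM in males, which had no part in picking them. In all 4 groups library 1 was the lowest and library 3 the highest. Most of each female sum came from Nasvi2EG004174 and Nasvi2EG004175. In library 3 they held 887 and 2005 CPM in N. giraulti females and 1064 and 2687 CPM in N. vitripennis females. The sums without this pair are not given here, so the order is not shown for each of the 9. The members outside the 9 summed to 50250, 55840 and 50000 CPM in N. giraulti females and 62240, 62350 and 57030 CPM in N. vitripennis females, without such a difference.

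The members with the smallest adjusted p for the replicate number were Nasvi2EG004174 and Nasvi2EG004175, whose identifiers follow each other. Nasvi2EG004174 was at 295, 342 and 887 CPM in N. giraulti females, against 0.202, 0.790 and 2.45 CPM in N. giraulti males. It was at 298, 401 and 1064 CPM in N. vitripennis females, against 0.526, 0.715 and 2.42 CPM in N. vitripennis males. Library 3 was the highest in each of the 4 groups, at close values in the species. Numbers 2 and 3 exceeded number 1 by a log2 fold change of 1.29 (SE 0.19), with an edgeR F test adjusted p of 0.000231 for the number terms.

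Nasvi2EG004175 was more abundant, at 566, 2468 and 2005 CPM in N. giraulti females, against 0.859, 3.16 and 7.21 CPM in N. giraulti males. Its levels in N. vitripennis were 447, 1329 and 2687 CPM in females, against 1.09, 2.90 and 6.38 CPM in males. Library 1 was the lowest in each group by a wide margin. The log2 fold change of numbers 2 and 3 over 1 was 2.13 (SE 0.23), with an edgeR F test adjusted p of 0.000278 for the number terms.

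The genes beside the members in the order of identifiers were also examined. The sources used here do not say whether consecutive identifiers lie next to each other in the genome. Of 17713 pairs of consecutive identifiers in the table, 20 consisted of 2 members, and these pairs hold 40 members (16.2%), and 2 of these pairs included a gene with fractional counts. Both genes of 3 such pairs, including Nasvi2EG004174 and Nasvi2EG004175, were among the 9 members at least 2-fold higher in library 3. Deviations from the group mean over the 6 female libraries had a median Pearson correlation of 0.751 in the 20 pairs (from -0.792 to 0.987) and of 0.254 over all 30381 pairs of members. The 20 include the 3 pairs picked for a shared shift. No such correlation was taken for consecutive pairs outside the members, so the value cannot be called particular to the members. With 6 libraries in 2 groups each such value is imprecise, and sequence shared by a pair of genes would tie their counts too, which was not tested.

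Of the 396 genes that are no members but carry an identifier next to a member's, 345 passed the filter on low counts and were tested. The rule was applied to these genes too and placed them outside the members, so they lack genes that met all its conditions, as do the genes they are set against. Among them 133 (38.6%) were called higher in females in both species, against 22.9% of all tested genes that are no members (edgeR, adjusted p under 0.05 in each species). Calls lower in females in both species were made for 54 (15.7%), against 22.9%. The median log2 fold change of females over males in these neighbours was 0.51 in N. giraulti and 0.88 in N. vitripennis, where all tested genes that are no members had -0.36 and -0.26. Among the 288 neighbours with whole counts the share higher in females in both species was 38.2%, against 22.5% of such genes in general. These neighbour counts were made with TMM scaling and both sets come from the same fit. The sets were not matched for their level, which can affect how often genes are called.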

How the data were processed

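Per the labels' protocols, total RNA was extracted from pools of 10 whole adults and 2 ug entered each TruSeq version 2 library, from independent batches. How the batches were separated is not stated, so p-values measure the spread between these libraries. The table deposited by the authors holds estimated counts, unscaled. The submitters' processing notes list TopHat2 2.0, HTSeq, CASAVA 1.8.2, Cufflinks 2.1.0, Trimmomatic, edgeR, FastQC and bedtools with no roles. Genome build: not given in the sources used here. The annotation release, and whether 1 reference served both species, are likewise unstated there. Reads of a species farther from the reference could be lost, which a species difference cannot be told apart from. All 24337 identifiers come from a single gene set.

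Members were chosen from CPM by column sum, with means over 3 libraries. Members, lists and tests were chosen with earlier results of these data known. Counts were rounded to whole numbers, filtered with filterByExpr (minimum count 10, 16536 genes left) and scaled with TMM. All 12 libraries entered a single edgeR 4.0.16 quasi-likelihood fit in R 4.3.3 (robust, a mean per group). The code was tried first on simulated counts. Their dispersion was set below that of this fit, so the trial does not show how the fit performs on these data. Benjamini-Hochberg adjustment ran over all genes, with calls at 0.05. The SE of a log2 fold change is its absolute value over the square root of F. Named were the 2 members highest in females, the 2 called members highest and the 2 lowest in the male species contrast, and the 2 with the smallest adjusted p of the replicate number, all with whole counts. At most 2 identifiers are given for each direction of a comparison because the files do not pair them with names. The common dispersion was 0.111. Counting intervals are exact binomial at 95% and cover counting error only.

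The replicate numbers were checked by correlating deviations from group means over all tested genes. The 18 same-number pairs had r from 0.228 to 0.746, and the 36 others had r from -0.629 to 0.403. Same-number libraries thus tended to deviate together, but the ranges overlapped, and 8 of the 36 others had r over 0.1. N. giraulti male library 3 had r of 0.403 with N. vitripennis male library 2 and 0.228 with library 3. Over the members the same-number pairs had r from -0.0041 to 0.90. The labels do not state a shared batch. The block lowered the dispersion to 0.0477. Alternatives were other scalings, filters, DESeq2 1.42.0, the replicate block, subsets of libraries and other limits of the rule.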

Additional observations from a re-analysis of the deposited data

Results flagged for a closer look

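By the interaction term of the edgeR fit, 24 members differed between the species in their sex effect (9.72%), against 7.02% of all genes. The effect of females over males was larger in N. giraulti for 6 of them and smaller for 18, against 2.73% and 4.29% of all genes. Blocking on the replicate number gave 17 and 40, and library size alone gave 13 and 9, so that the balance turned. Over all genes the block gave 950 and 1837, and library size alone gave 773 and 414, where the balance turned as well. The 18 became 10 without N. vitripennis male library 2 or 3, and the 6 became 2 without N. vitripennis female library 2, N. vitripennis male library 1 or N. giraulti female library 2, and 3 without N. giraulti female library 1 or male library 2. Over all genes these leave-one-out runs gave 314 to 406 positive and 441 to 613 negative calls, against 451 and 710 in the main fit. The rule used both sex effects, and nothing is read from the members' counts. Among the named members, Nasvi2EG004881 had an interaction of 1.60 on the log2 scale, N. giraulti minus N. vitripennis (SE 0.42, edgeR adjusted p = 0.0378). The gene was named for its low level in N. giraulti over N. vitripennis males, which enters the interaction, so this p is a description and not an independent test, and it was not recomputed under the alternatives.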

How the results depend on the processing

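The number of members depended on the limits: 418 genes met a sex difference of 4 units, 115 one of 6 units and 111 the main limits with 2 CPM added, where the larger addition alone removes members with low levels. It was 225 with TMM-scaled CPM, 224 of them members, and 243 to 250 with a replicate number left out. The summed male share of the female level was 1.07% in N. giraulti and 0.835% in N. vitripennis with TMM-scaled CPM, against 0.871% and 0.899%, which turned the order of the species, and ran over 0.828% to 0.915% and 0.872% to 0.916% without a number. With the replicate block and in the 8 libraries numbered 2 and 3, 246 of the 247 members were called higher in females in each species, and without a filter 246 in 1 of them; the other alternatives called all members they kept. Calls higher in N. giraulti females were 17 with upper-quartile scaling, library size alone and DESeq2, 16 in the 8 libraries numbered 2 and 3 and 19 with the replicate block. Calls lower there were 40 with upper-quartile scaling and library size alone and 124 with the block. In males, calls were 24 higher and 41 lower in N. giraulti with the replicate block, and 14 higher and 12 lower, the reverse balance, of 182 members tested with only the 6 male libraries, where the filter removed members. The interaction gave 13 positive and 9 negative calls with library size alone, and 17 and 40 with the block. Calls over all genes moved between these settings too. The causes were not tested. The alternatives for the sex difference, the females, the interaction and the male share were chosen after seeing the data. Leaving out a single library gave 6 to 17 higher and 37 to 78 lower calls between females, 17 to 28 and 12 to 30 between males, 2 to 8 positive and 10 to 22 negative interactions and 43 to 90 members with a replicate number effect. Nasvi2EG006004 also lost its call in the 8 libraries numbered 2 and 3 (log2 fold change 2.24, adjusted p = 0.103, range 0.00101 to 0.103), while the male species calls of Nasvi2EG011429, Nasvi2EG004881 and Nasvi2EG011980 and the replicate number calls of Nasvi2EG004174 and Nasvi2EG004175 held in each alternative run for them. The male values rest on few reads, with a median of 57 per member over 3 libraries in N. giraulti and 85 in N. vitripennis, which limits their precision.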
